A study of Mus musculus with 4 samples.

Results

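MHC class II antigen presentation was followed through 7 genes, chosen by their symbols from a fixed list: H2-Aa, H2-Ab1, H2-Eb1, H2-DMa, H2-DMb1, Cd74 and Ciita. All 7 were listed in both of the authors' deposited tables, among 25522 genes without and 26085 genes with tetracycline. RNA came from small-intestinal crypts, the pits of the gut lining that hold its stem cells, of 9-week-old C57BL/6J males. The 4 groups were fed or fasted for 24 hours, each without or with tetracycline, an antibiotic, for 21 days. Per group the labels list 1 sample, and they name the cells small intestinal epithelial cells, loosened with a chelating buffer and then trypsin. The design text says that tetracycline served to deplete what it abbreviates as AKK, and asks how this affects expression in fed against fasted mice.

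Class II molecules are cell-surface dimers that show peptides from taken-up proteins to CD4+ T cells. H2-Aa and H2-Ab1 encode the alpha and beta chain of the I-A dimer, and H2-Eb1 encodes the beta chain of I-E, whose alpha chain gene is defective in C57BL/6 mice. Cd74, the invariant chain, escorts new dimers to endosomes and blocks their groove, and the H2-DM dimer of H2-DMa and H2-DMb1 exchanges the remaining Cd74 fragment for peptide. Ciita is the coactivator that switches the whole set on, through proteins bound to the X and Y boxes upstream of these genes. B cells, dendritic cells and macrophages carry class II, and interferon gamma induces it in other cells, including the gut epithelium.

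Positions are those of the GRCm38 build. In GENCODE release M21, H2-DMa (chr17:34119541-34139101), H2-DMb1 (chr17:34153072-34160230), H2-Ab1 (chr17:34257689-34269419), H2-Aa (chr17:34282744-34287823, minus strand) and H2-Eb1 (chr17:34305867-34316674) are protein-coding genes of the same chromosome 17 region. Ciita is at chr16:10480059-10528418. The library kit did not keep the strand, so exon overlaps matter: 10.4% of the H2-DMa exon bases are shared with Brd2 and 3.45% of those of Ciita with Dexi, each on the opposite strand. H2-DMb1 and H2-Eb1 have close copies, H2-DMb2 and H2-Eb2, and reads may have been divided between copies. The share of reads affected was not measured and need not equal the share of bases. The values of H2-DMa, Ciita, H2-DMb1 and H2-Eb1 are thus uncertain by an unknown amount.

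RefSeq promoter windows (GRCm38.p6, 250 bases before to 50 after a start) were matched for 4 of the 7 genes, H2-Aa, H2-Eb1, H2-DMa and H2-DMb1. The windows of 3 are printed because they hold, in the same order, letters of the boxes through which Ciita acts on the genes measured here. Capitals mark AACNGATG from the X1 box, TGACGTCA from the X2 box and GATTGG from the Y box, searched on both strands, with letters chosen with these windows in view and no overlap between the matches. Sequences run 5′ to 3′ on the strand of the gene, at chr17:34287774-34288073 (minus strand) for H2-Aa, chr17:34305617-34305916 (plus strand) for H2-Eb1 and chr17:34152941-34153240 (plus strand) for H2-DMb1.
H2-Aa: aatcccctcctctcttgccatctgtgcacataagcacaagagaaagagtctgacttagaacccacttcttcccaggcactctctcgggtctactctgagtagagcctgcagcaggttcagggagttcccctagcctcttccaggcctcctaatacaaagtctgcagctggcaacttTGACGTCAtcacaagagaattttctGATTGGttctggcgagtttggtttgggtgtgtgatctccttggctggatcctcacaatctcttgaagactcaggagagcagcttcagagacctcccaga
H2-Eb1: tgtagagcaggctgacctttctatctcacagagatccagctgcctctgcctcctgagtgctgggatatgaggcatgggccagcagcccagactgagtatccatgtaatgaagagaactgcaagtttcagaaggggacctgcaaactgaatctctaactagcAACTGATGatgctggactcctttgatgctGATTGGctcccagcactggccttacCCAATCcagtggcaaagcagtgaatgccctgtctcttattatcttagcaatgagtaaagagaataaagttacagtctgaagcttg
H2-DMb1: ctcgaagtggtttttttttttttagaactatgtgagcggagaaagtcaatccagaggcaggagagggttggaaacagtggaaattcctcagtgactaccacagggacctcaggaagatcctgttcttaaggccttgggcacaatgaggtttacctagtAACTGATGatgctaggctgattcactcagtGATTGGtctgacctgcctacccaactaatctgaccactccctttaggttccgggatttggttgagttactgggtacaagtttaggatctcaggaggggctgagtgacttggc
The X2 letters of H2-Aa began at position -74 from the start, and the X1 letters of H2-Eb1 and H2-DMb1 at -89 and -92. The Y letters followed after 17, 21 and 22 bases. Of all 32851 promoter windows of this length, 2.32% held the X1 letters, 1.79% the X2 letters and 16.1% the Y letters. An X1 or X2 match up to 30 bases before a Y match on the gene strand was present in 24 windows, or 0.0731%, among them those of these 3 genes, of H2-DMb2 and of H2-Eb2. The X1 letters were shortened after a first search with AGN in front of them, and that longer form was present in 0.298% of windows and gave 21 windows, or 0.0639%, with a pair. Neither of the 2 windows of H2-DMa, at chr17:34122582-34122881 and chr17:34125268-34125567, held the X1 or X2 letters. Both lie downstream of the GENCODE start of the gene at 34119541, which was not searched. A match is a description of the sequence, not a measured binding site.

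Each table gives a mean over libraries, a log2 fold change and its test, with no value per sample. The means are sums of whole counts divided by fixed library factors, and whole counts were recovered for all 7 genes. They showed 4 libraries per table, 2 fasted and 2 fed, which cannot be tied to the labelled samples. Whether they are separate mice is not given. Within a pair, number 1 goes to the library whose size factor is larger. Values per library are normalized counts, that is, counts divided by the size factor, and single library values have no test of their own. No column states the direction of the change, which was taken to be fasted over fed because the tables' names put the words in that order. An average library held 65863261 normalized counts in the table without and 65327199 in the table with tetracycline, and size factors ran from 0.73 to 1.27.

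The first comparison asked how fasting changed the class II genes without tetracycline. All 7 were lower in fasted crypts by 2.18-fold to 2.82-fold, and Cd74 and H2-Ab1 fell past the threshold of an adjusted p under 0.05 (DESeq2's Wald test with Benjamini-Hochberg adjustment) in the authors' deposited table. Of all 18100 genes tested, 1.22% were called lower and 2.27% were called in either direction. The median log2 change of the 7 genes was -1.34, against -0.02 over 13335 genes with a mean of at least 50. A log2 change of -1 or lower was reached by 7 of 7 genes, by 9.48% of genes with a mean of at least 1 and by 2.95% of genes with a mean of at least 50. At an unadjusted p under 0.05 the count was 7 of 7, against 7.82% of all genes. Markers of cells that carry class II differed by list. Of the B cell markers 8 of 8 were called lower, with a median of -2.10 in the authors' deposited table. Of the dendritic cell markers 0 of 8 were called (DESeq2, 1 at an unadjusted p under 0.05), with a median of -0.10 and 2 of 8 higher. Of the macrophage markers 0 of 9 were called (DESeq2, 5 at an unadjusted p under 0.05), with a median of -1.09. Summed pan-leukocyte markers were 4383 and 8157 when fasted, against 9608 and 13379 when fed. In bulk RNA, fewer cells of a type and less RNA per cell cannot be told apart, and the part of these cells in the result was not tested.

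Cd74 was the most abundant of the set, at 2200 and 5067 normalized counts when fasted, against 7090 and 13432 when fed. Both fed values lay above both fasted values, and within each feeding state library 2 was the higher. The authors' deposited table gave a log2 change of -1.498 (SE 0.42, adjusted p 0.0187).

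The I-A chains showed the same layout. H2-Ab1 had 1252 and 1962 normalized counts when fasted, against 2576 and 5575 when fed, with a log2 change of -1.34 (SE 0.39, adjusted p of 0.0285) according to the authors' deposited table. H2-Aa had 815 and 1961 when fasted, against 2428 and 4586 when fed. The feeding states did not overlap for either chain. For H2-Aa the authors' deposited table gave -1.34 (SE 0.43, adjusted p 0.0661), which missed the threshold. H2-Eb1, the I-E beta chain, had 740 and 1644 normalized counts when fasted, against 1937 and 3735 when fed. Its change of -1.25 (SE 0.42, adjusted p of 0.0910) according to the authors' deposited table was not called, although both fasted values were below both fed values.

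The peptide exchange dimer was lower in read number. H2-DMa had 221 and 343 normalized counts when fasted, against 440 and 788 when fed, and H2-DMb1 had 60.5 and 129 when fasted, against 140 and 342 when fed. For H2-DMb1 the higher fasted and the lower fed library were separated by a small gap. In the authors' deposited table the log2 changes were -1.12 (SE 0.39, adjusted p 0.108) for H2-DMa and -1.35 (SE 0.52, adjusted p 0.205) for H2-DMb1, and neither was called. Ciita, the coactivator, had 163 and 239 normalized counts when fasted, against 313 and 598 when fed. Its feeding states were also apart, and the authors' deposited table gave -1.18 (SE 0.40, adjusted p 0.105).

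Both fasted libraries lay below both fed libraries for 7 of 7 genes, a layout also found in 25.1% of the 12228 genes with recovered counts and a mean of at least 50. The libraries of a feeding state differed widely: the sum of the 7 genes was 5451 and 11345 when fasted, against 14924 and 29056 when fed. The higher fasted and the lower fed library thus lay closer together than the libraries of either pair. Without fed library 2 the median log2 ratio of the 7 genes was -0.68 in place of -1.34, and without fasted library 1 it was -0.90. Without fasted library 2 it was -1.94 and without fed library 1 it was -1.73, all values with no test.

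**Figure D1:**
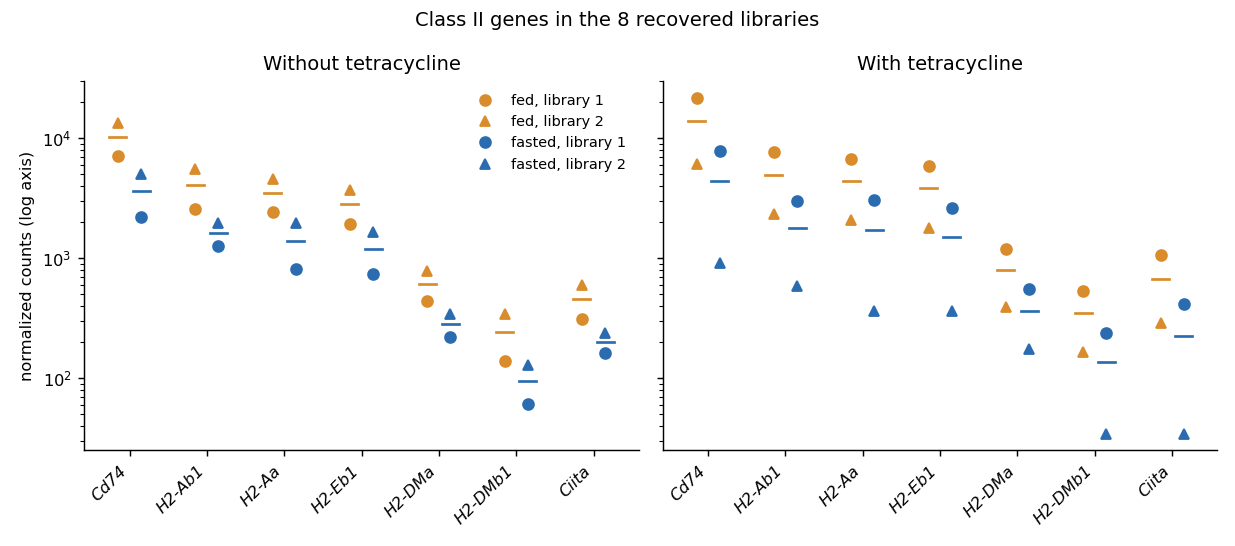
Normalized counts (log axis) of the 7 class II genes in the fed and fasted libraries of each table, with 1 point per recovered library and a short line at the mean of each pair. Without tetracycline the fed points lie above the fasted points for 7 of 7 genes, and with tetracycline fasted library 1 lies above fed library 2 for 7 of 7 genes.

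The second comparison repeated the question in mice given tetracycline. The log2 changes were of like size, from -1.66 to -1.13 with a median of -1.36, but the standard errors were 0.72 to 0.98 and none of the 7 genes was called in the authors' deposited table (DESeq2). Adjusted p-values were 0.990 or higher, and 0 of 7 genes had an unadjusted p under 0.05, the lowest being 0.0642 for H2-Ab1. Among all 17993 genes tested, 0.6% were called, 0.267% were called lower, and 3.85% of all genes had an unadjusted p under 0.05. A log2 change of -1 or lower was again reached by 7 of 7 genes, against 14.0% of genes with a mean of at least 1 and 7.33% of those with a mean of at least 50.

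The fasted and fed libraries overlapped for every one of the 7 genes with tetracycline. Cd74 had 7911 and 909 normalized counts when fasted, against 21764 and 6144 when fed. Fasted library 1 was above fed library 2, and fasted library 2 was the lowest of the 4. The authors' deposited table gave Cd74 a change of -1.66 (SE 0.90, adjusted p 0.990), with a 95% interval from -3.43 to 0.10.

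The I-A chains repeated this order of libraries. H2-Ab1 had 2984 and 583 normalized counts when fasted, against 7626 and 2334 when fed, and a change of -1.48 (SE 0.80) in the authors' deposited table. H2-Aa had 3045 and 362 when fasted, against 6697 and 2078 when fed, and a change of -1.36 (SE 0.89) in the authors' deposited table. In both, fed library 1 was highest and fasted library 2 lowest. H2-Eb1 followed with 2618 and 366 normalized counts when fasted, against 5887 and 1793 when fed, and a change of -1.36 (SE 0.86) in the authors' deposited table.

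For the exchange dimer, H2-DMa had 550 and 173 normalized counts when fasted, against 1198 and 390 when fed. H2-DMb1 had 238 and 34.4 when fasted, against 532 and 165 when fed. H2-DMa thus differed least between the fasted libraries, by 3.17-fold. Ciita had 413 and 34.4 normalized counts when fasted, against 1060 and 288 when fed, with the widest gap between the fasted libraries of the 7 genes. Its low value rests on 25 counts, as does that of H2-DMb1. The authors' deposited table gave changes of -1.13 (SE 0.72) for H2-DMa, -1.35 (SE 0.89) for H2-DMb1 and -1.59 (SE 0.98) for Ciita.

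Both fasted libraries lay below both fed libraries for 0 of 7 genes, against 15.7% of the 12485 genes with recovered counts. Summed over the 7 genes, fasted library 1 was 7.21-fold above fasted library 2, and fed library 1 was 3.39-fold above fed library 2. Leaving out 1 library moved the median log2 ratio from -1.36 to -3.39 without fasted library 1, -0.29 without fed library 1 and -0.55 without fasted library 2. Without fed library 2 it was -1.98.

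**Figure D2:**
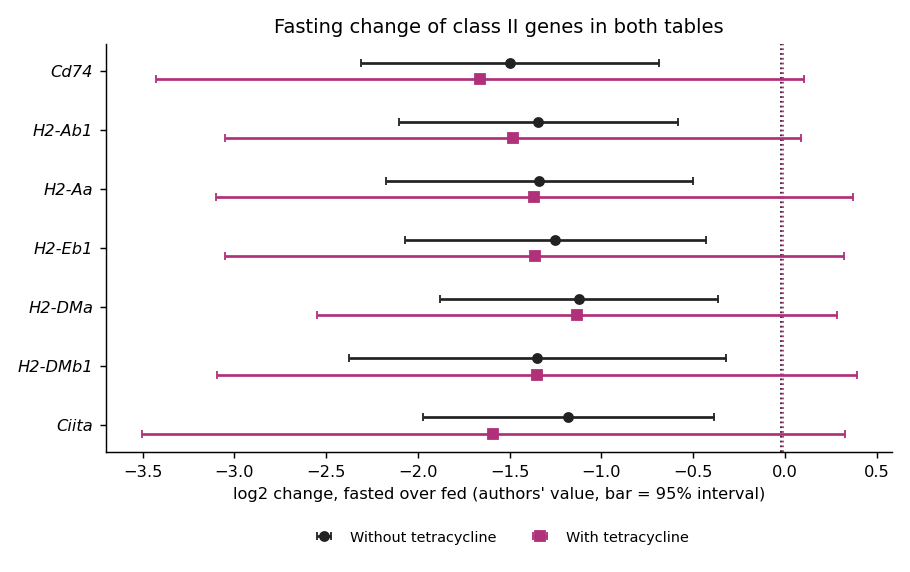
The authors' log2 fasting change (fasted over fed) of each class II gene without tetracycline (circles) and with it (squares), with bars for the 95% interval and dotted lines at the median change of all genes with a mean of at least 50. All 7 intervals without tetracycline lie below 0, and all 7 with tetracycline cross 0.

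The next comparison asked whether the fasting change differed with tetracycline. The difference, with minus without tetracycline, ran from -0.41 for Ciita to -0.0047 for H2-DMb1, and its standard error from 0.82 to 1.06. The Wald test called 0 of the 7 genes, with Benjamini-Hochberg adjusted p-values of 1.0 over 17571 genes and 0 of 7 at an unadjusted p under 0.05. Over all genes it called 0.0228%, with 1.05% at an unadjusted p under 0.05. For Ciita the difference was -0.41 (SE 1.06, unadjusted p 0.700), and the 95% interval from -2.48 to 1.67 includes 0. For Cd74 the interval ran from -2.11 to 1.78. Intervals this wide do not show that the changes were alike.

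Levels with against without tetracycline stand in separately scaled tables, so they were set side by side and not tested. In fed crypts the rebuilt group mean of Cd74 was 10261 without and 13953 with tetracycline, and that of Ciita was 455 and 674. After centring on the median log2 ratio of 13194 genes, the group means of the 7 genes were 0.27 to 0.55 higher with tetracycline in fed crypts on the log2 scale, and 0.08 to 0.45 higher in fasted crypts. Single libraries set this direction. The fed class II sums were 44763 and 13192 with tetracycline, against 14924 and 29056 without it, so fed library 2 with tetracycline was the lowest of the 4. Without fed library 1 with tetracycline, 0 of 7 genes were higher and the median was -0.68 in place of 0.42, and without fed library 1 from mice not given tetracycline, 4 of 7 were higher with a median of 0.012. In fasted crypts the median went from 0.23 to -1.77 without fasted library 1 of the tetracycline table and to -0.21 without fasted library 1 of the other. Leaving out library 2 of a pair gave medians of 0.93 to 1.05. Pan-leukocyte sums in fed crypts were 39301 and 10183 with tetracycline against 9608 and 13379 without it. Fed library 1 with tetracycline was highest for both sums, while the lowest library differed, and the part of these markers in the result was not tested.

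Set against gene length, the order of the transcripts was nearly fixed. Levels here are normalized counts per kilobase of the GENCODE exons of a gene, and the transcripts used by the crypt cells may be shorter. In fed crypts without tetracycline the mean was 6111 per kilobase for Cd74, 1587 for H2-Ab1, 1459 for H2-Eb1, 924 for H2-Aa, 178 for H2-DMa, 143 for H2-DMb1 and 47.7 for Ciita. Cd74 was highest and Ciita lowest in 8 of 8 libraries, and H2-Aa stood below both other chains in 8 of 8. H2-Ab1 was above H2-Eb1 in 4 of 8 libraries, so those neighbours had no fixed order. H2-DMa was above H2-DMb1 in 8 of 8 libraries, but the ranges of the pair overlapped, at 128 to 228 and 83.2 to 203 per kilobase in fed libraries without tetracycline.

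The make-up of the set varied less than its total. Cd74 held 48.1% to 60.3% of the summed counts per kilobase in the 8 libraries, H2-Eb1 13.9% to 16.7% and H2-Aa 8.20% to 9.66%. H2-Ab1 held 13.8% to 20.2%, and its 2 highest shares, 20.2% and 19.4%, were in fasted library 2 with and fasted library 1 without tetracycline, the libraries with the lowest class II sums. H2-DMa, at 1.62% to 4.46%, had its 2 highest shares in the same libraries. Relative to Cd74, H2-DMa ran from 5.50 to 19.1 counts per 100 of Cd74. The part of reads from the overlap with Brd2 in these H2-DMa values was not tested. Ciita ran from 0.32% of the sum in fasted library 2 with tetracycline, on 25 counts, to 0.68% in fasted library 1 without it.

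**Figure D3:**
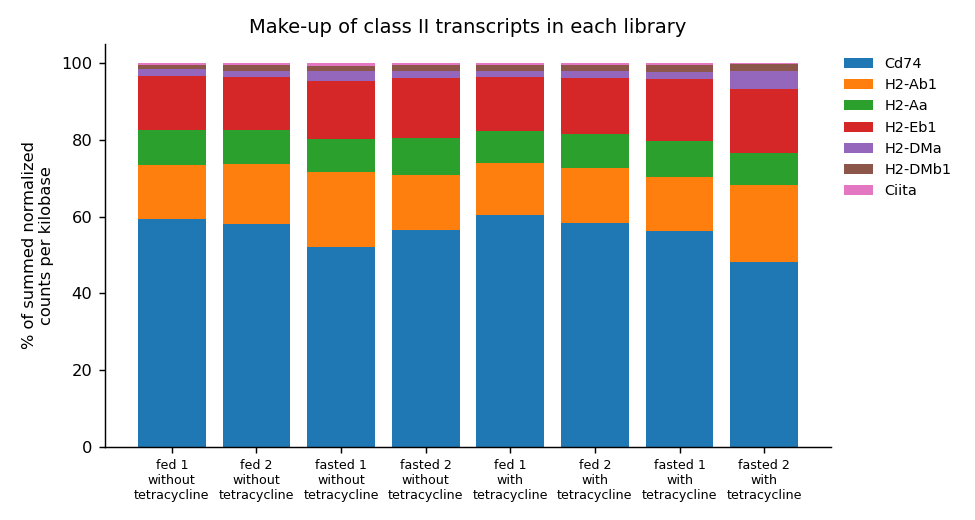
Share of each class II gene in the summed normalized counts per kilobase (bars add to 100%) in each of the 8 libraries. Cd74 makes up 48.1% to 60.3%, and the H2-Ab1 and H2-DMa shares are highest in fasted library 2 with tetracycline, at 20.2% and 4.46%.

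From library to library the 7 genes varied together. On log2(normalized count + 1), centred within each table, each gene had a Pearson r of 0.98 or more to the mean of the other 6 over the 8 libraries. This is a description, since the libraries share their scaling and 8 points carry few degrees of freedom. Of 12037 genes with a mean of at least 50 and recovered counts in both tables, 434 (3.61%) had an r above 0.95 to the mean of the 7. By the rule, the genes of most like pattern were Ifi209, Rubcnl, Ly86, Irf5, Coro1a and Tlr12, with r from 0.9952 to 0.9969. Ly86 encodes a partner of a B cell and myeloid receptor, Irf5 an interferon regulatory factor of immune cells, and Coro1a an actin-binding protein of leukocytes. Ifi209, with the highest r, had 85.3 and 157 normalized counts when fasted, against 202 and 334 when fed without tetracycline, and 291 and 45.4 when fasted, against 782 and 231 when fed with it. Its log2 changes of -1.15 and -1.59 were not called in the authors' deposited tables (adjusted p 0.195 and 0.999).

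Other genes of the class II pathway were followed in fixed lists. Of 10 accessory genes, 3 were called lower and 1 higher without tetracycline, and 0 and 0 with it, in the authors' deposited tables (DESeq2). At an unadjusted p under 0.05 the counts were 6 and 2 of 10, and the median log2 changes were -0.85 and -0.49. H2-Ob, the beta chain of the H2-DO dimer that restrains peptide exchange in B cells, had 89.9 and 155 normalized counts when fasted, against 314 and 552 when fed. It fell by 1.82 (SE 0.42, adjusted p of 0.00155) without tetracycline according to the authors' deposited table. H2-DMb2, the second DM beta chain, had 99.1 and 210 when fasted, against 372 and 819 when fed and changed by -1.95 (SE 0.46, adjusted p of 0.00265) according to the authors' deposited table. H2-Eb2, a second I-E beta chain gene, had 35.8 and 58.1 when fasted, against 154 and 270 when fed and changed by -2.18 (SE 0.48, adjusted p of 0.000638) according to the authors' deposited table. Both fed libraries were above both fasted libraries for each of these 3 genes. With tetracycline their changes were -1.45, -1.80 and -1.71, with standard errors of 1.94, 0.91 and 1.03 in the authors' deposited table.

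Lgmn was the accessory gene called higher. Lgmn, a protease that cuts antigens and the invariant chain, had 4316 and 2453 normalized counts when fasted, against 1218 and 1380 when fed without tetracycline. It rose by 1.38 (SE 0.33, adjusted p of 0.00236) according to the authors' deposited table. With tetracycline it had 1512 and 4520 when fasted, against 1323 and 1231 when fed, with a change of 1.24 (SE 0.58, adjusted p of 0.830) according to the authors' deposited table. Fasted library 2 with tetracycline was the highest of these 4 for Lgmn and the lowest for the 7 class II genes. Ctss, the protease that trims Cd74, had log2 changes of 0.28 (SE 0.34) and 0.15 (SE 0.47), and Ifi30, a thiol reductase of endosomes, by -0.31 (SE 0.26) and 0.29 (SE 0.39) in the authors' deposited tables. Marchf8, a ubiquitin ligase that removes class II from the surface, had 0.10 (SE 0.29) and 0.09 (SE 0.48) in the authors' deposited tables. None of these 3 was called.

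The proteins that hold Ciita at the promoter were compared next. Of 7 genes for the RFX, NF-Y and CREB factors, 0 were called in either table and 0 had an unadjusted p under 0.05, and their median log2 changes were -0.19 and -0.24 in the authors' deposited tables without and with the antibiotic (DESeq2). Rfxank, Nfya, Nfyc and Creb1, the most abundant, had log2 changes of -0.27 (SE 0.30), -0.24 (SE 0.28), -0.06 (SE 0.25) and -0.33 (SE 0.28) without tetracycline in the authors' deposited table. Summed normalized counts of the 7 genes were 11186 and 10121 when fasted, against 12057 and 11947 when fed without tetracycline. With it they were 10209 and 10824 when fasted, against 12771 and 12388 when fed. Both fasted sums lay below both fed sums in each table, and 6 of the 7 genes were lower in each. Over the separately scaled tables the sums ran from 10121 to 12771, while the class II sum ran from 2463 to 44763.

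On the interferon gamma route that induces Ciita, 0 of the 9 genes tested without and 0 of the 10 tested with tetracycline were called in the authors' deposited tables (DESeq2), with 0 at an unadjusted p under 0.05 without tetracycline and 1 with it. The median change was 0.11 without and -0.56 with tetracycline. The receptor chains Ifngr1 and Ifngr2 had log2 changes of 0.16 and 0.30 without tetracycline and 0.78 and 0.44 with it in the authors' deposited tables. The kinases Jak1 and Jak2 had 0.13 and 0.30 without and -0.27 and -0.40 with it. Interferon gamma itself (Ifng), named outside the naming rule after its counts were seen, was near the limit of counting, with 2 and 0 counts when fasted, against 1 and 3 when fed without tetracycline. With tetracycline it had 7 and 1 counts when fasted, against 31 and 1 when fed, so 1 fed library held most of them.

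Class I presentation, the sister pathway that most cells use, was compared in 11 genes, of which 0 were called in either table by DESeq2, with 2 and 4 at an unadjusted p under 0.05. Those were Psmb8 and Psmb9 in both tables, joined by Psmb10 and Nlrc5 with tetracycline, named after their values were seen. DESeq2 put all of them lower when fasted, at -0.71 for Psmb8 and -0.79 for Psmb9 in mice not given tetracycline. In mice given it, the log2 changes were -1.61 (Psmb8), -1.40 (Psmb9), -0.86 (Psmb10) and -1.75 (Nlrc5). Their unadjusted p-values there (DESeq2) were 0.000855 to 0.0262, below the lowest of the 7 class II genes, 0.0642. Of the 11 genes, 6 were lower and 5 higher without tetracycline, and 8 and 3 with it. The median log2 change was -0.05 and -0.43 in the authors' deposited tables without and with the antibiotic. H2-K1 and H2-D1, the heavy chains, had log2 changes of 0.09 (SE 0.34) and 0.12 (SE 0.34) without tetracycline in the authors' deposited table, and B2m, their light chain, by -0.05 (SE 0.37). With it they had 0.06, 0.00030 and -0.38, with standard errors of 0.49 to 0.53. Tapbp, which bridges class I to the peptide transporter, had 0.21 and -0.10. Of 5 costimulation genes, 0 were called by DESeq2 (1 in each table, Cd40, at an unadjusted p under 0.05) and 5 of 5 were lower in each table, with medians of -0.55 and -0.94. The authors' deposited tables gave Cd86 -1.15 and -0.94, Cd40 -1.70 and -1.81, Icosl -0.23 and -0.13, and Cd274 -0.43 and -0.92. Among all genes whose mean reached 1, medians were 0.02 and -0.02.

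**Figure D4:**
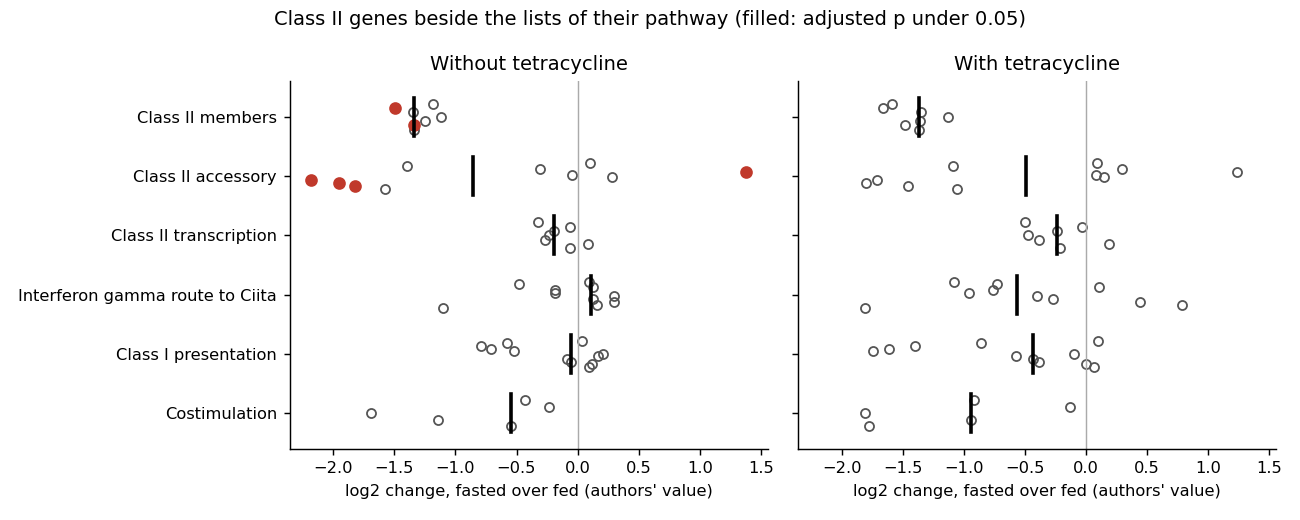
The authors' log2 fasting change (fasted over fed) of each gene in the class II set and in 5 lists of related genes, with filled points for an adjusted p under 0.05 and a black line at the list's median. Without tetracycline the class II median is -1.34, and the other medians are -0.85 for accessory genes, -0.55 for costimulation, -0.19 for the transcription factors, -0.05 for class I and 0.11 for the interferon gamma route.

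Most leukocyte lists varied with the class II genes across the 8 libraries. The median Pearson r to the mean of the 7 was 0.990 over 4 pan-leukocyte, 0.983 over 8 B cell and 0.980 over 6 T cell markers. It was 0.961 over 8 macrophage markers, which ran from -0.50 to 0.98, and 0.894 over the 3 dendritic cell markers that could be compared. It was 0.763 over 5 endothelial and stromal markers, and 2 innate lymphoid markers had -0.77 and 0.81. These values describe libraries that share their scaling. The labelled epithelium was present, with 7 of 7 epithelial markers at means of 17206 to 184435 normalized counts without and 15520 to 154047 with tetracycline. Immune cells were represented too: 0 of the 8 B cell, 8 dendritic cell, 9 macrophage, 6 T cell and 4 pan-leukocyte markers had 0 counts in any library. B cell markers were lower in fasted crypts, with 8 of 8 called without and 0 of 8 called with tetracycline in the authors' deposited tables (DESeq2; 1 at an unadjusted p under 0.05), and medians of -2.10 and -1.85. Cd79a, the B cell receptor's signalling chain, had 129 and 276 normalized counts when fasted, against 741 and 1491 when fed without tetracycline. With it, Cd79a had 702 and 22.0 when fasted, against 1858 and 366 when fed, the order of libraries seen for Cd74.

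The other marker lists followed in part. Pan-leukocyte markers had medians of -1.03 and -1.61, T cell markers -0.94 and -1.74, and macrophage markers -1.09 and -1.38, with 1 of 4 pan-leukocyte genes (Cd52), 0 T cell and 0 macrophage genes called without tetracycline and 0 genes of these 3 lists called with it. At an unadjusted p under 0.05 (DESeq2) the T cell counts were 5 and 3 of 6, and the macrophage counts 5 and 5 of 9. For dendritic cell markers the medians were -0.10 and -1.08, and DESeq2 called 0 of 8 in each table, with 1 and 0 at an unadjusted p under 0.05. Without tetracycline the dendritic sum was 407 and 799 when fasted, against 679 and 813 when fed, so its feeding states overlapped where those of class II did not. With tetracycline the dendritic sum was 1082 and 146 when fasted, against 2665 and 762 when fed, the same order as class II. Summed pan-leukocyte markers with tetracycline were 13807 and 2340 when fasted, against 39301 and 10183 when fed.

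**Figure D5:**
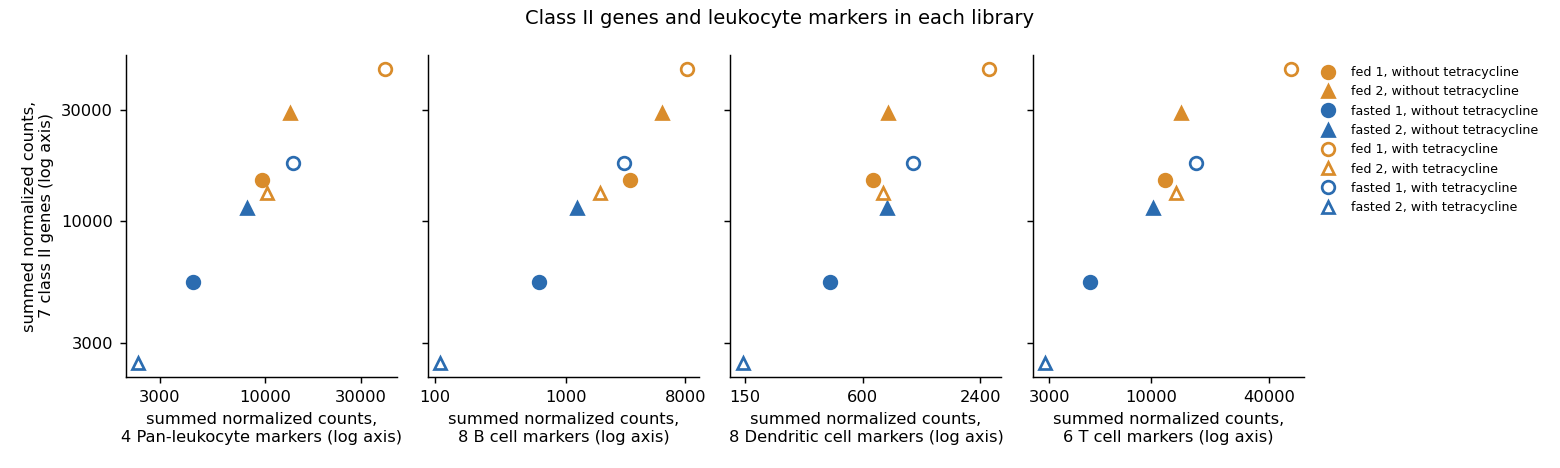
Summed normalized counts of the 7 class II genes against those of pan-leukocyte, B cell, dendritic cell and T cell markers (log axes), with 1 point per library and open points with tetracycline. Fed library 1 with tetracycline is highest and fasted library 2 with tetracycline lowest on every axis.

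Class II per leukocyte marker gave smaller or opposite differences, depending on the marker list. Per summed pan-leukocyte count, the class II sum was 1.24 and 1.39 when fasted, against 1.55 and 2.17 when fed without tetracycline. The feeding states still did not overlap. With tetracycline the ratios were 1.29 and 1.05 when fasted, against 1.14 and 1.30 when fed, which overlapped. Per summed B cell count the order turned around without tetracycline, at 8.84 and 9.47 when fasted, against 4.93 and 5.46 when fed. With tetracycline those ratios were 6.53 and 22.4 when fasted, against 5.44 and 7.28 when fed, and the 22.4 rests on a B cell sum of 110 normalized counts. Per dendritic cell count the ratios were 13.4 and 14.2 when fasted, against 22.0 and 35.8 when fed without tetracycline, and between 16.4 and 17.3 in the 4 libraries with it. Plasma cell markers had medians of -1.82 (2 of 3 called lower, Jchain and Mzb1) and -1.26 (0 of 3), and endothelial and stromal markers -1.74 (3 of 6 called lower, Col1a1, Col1a2 and Col3a1) and -1.03 (0 of 6). Innate lymphoid markers had 0.48 and -0.52 (0 of 2 tested called in each), and crypt base markers 0.61 (1 of 5 called higher, Defa24) and 0.78 (0 of 5). The part of these cell types in the class II change was not tested.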

How the data were processed

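RNA-seq libraries of mouse small-intestinal crypts lost strand information at library preparation, per the labels' protocols. Salmon, DESeq2 and the mm10 genome are named, without versions, per the submitters' processing notes. The authors deposited 2 tables of DESeq2 results, fasted against fed, without and with tetracycline. The deposited mean (baseMean, per the file headers) is a signal, whose low values step in whole counts divided by size factors. The authors' fold change and standard error are log2 values. The deposited test statistic is a score (change divided by SE). Two-sided tests gave the authors' p-values, with Benjamini-Hochberg adjusted p-values beside them, and these relations held in the deposited values.

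From these, whole counts per library were recovered as the combination whose scaled sum gives the deposited mean and whose refitted negative binomial log2 change lies within 0.0001 of the deposited one. At means from 50 to 10000 counts were recovered for 12228 of 12229 genes in the table without tetracycline and 12485 of 12494 in the other. Of these, 12225 and 12483 met both conditions, and the rest were accepted as the only combination found for the mean. In the table with tetracycline, 5 genes were ambiguous. The recovery and the test of the difference were tested on simulated data. The refit served only to recover counts, and no p-value was computed from recovered libraries, since the labels give no such samples. The authors' p-values set each change against a standard error from libraries whose spread may be only technical. The difference of the changes was tested with a two-sided Wald test from the deposited changes and errors. Levels across tables used pseudocount 1. Identifiers matched GENCODE release M21 without their version for 99.3% and 99.2% of rows.

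The 7 genes and all lists were chosen with earlier results of these data known. Named beside them are, from each related list, the 4 genes with the highest means and any gene called, and 6 genes of like pattern. Markers were named where a result turned on them, and Ifng and the genes behind small counts were named after their values were seen. Some single-gene values are not reported here. There are 0 further per-sample columns. Python 3.11.15, numpy 2.4.6, pandas 2.3.3 and scipy 1.17.1 were used.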

Additional observations from a re-analysis of the deposited data

How the results depend on the processing

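Threshold, adjustment, scaling and pseudocount were varied, and changes per leukocyte marker were chosen after seeing the data. At an adjusted p under 0.01 the genes called without tetracycline went from 2 to 0. Leaving out 1 library moved the median log2 ratio between -1.94 and -0.68 without and between -3.39 and -0.29 with tetracycline. For levels with against without tetracycline, leaving out 1 library (also added after seeing the data) moved the median between -0.68 and 1.04 in fed and between -1.77 and 1.05 in fasted crypts, and turned it negative at -0.68 without fed library 1 with tetracycline, -0.21 without fasted library 1 without tetracycline and -1.77 without fasted library 1 with tetracycline. Per summed pan-leukocyte, macrophage and T cell markers the medians were -0.38, -0.41 and -0.45 without tetracycline, -0.95 per dendritic cell markers and 0.94 per B cell markers. With tetracycline they were 0.087 per pan-leukocyte, 1.33 per B cell, 0.11 per dendritic cell, 0.20 per T cell and -0.29 per macrophage markers. Innate lymphoid markers with tetracycline had a median of 0.044 with a mean of at least 5, where fewer genes enter, and -0.52 otherwise. The cause of the other shifts was not tested. No paired analysis was possible because the labels list 1 sample per group and the recovered libraries carry no numbers that pair them. Depth limits Ciita and H2-DMb1 most, at 25 counts in fasted library 2 with tetracycline.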
